A study of Homo sapiens with 1 sample.

Results

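The transcripts of 10 cell cycle genes were followed through 1 single-cell RNA-seq library of human neural progenitors. They were the D-type cyclins CCND1, CCND2 and CCND3, the E-type cyclins CCNE1 and CCNE2, the A- and B-type cyclins CCNA2, CCNB1 and CCNB2, and the inhibitors CDKN1B (p27) and CDKN2C (p18). The genes were picked by symbol from the 33538 genes listed, and each symbol had 1 row. The library came from H9, an established human embryonic stem cell line, with genotype WT for HAR123, a human accelerated region with enhancer activity, and is labelled hHAR123. The cells were grown for 2 days as an adherent layer and 5 days under rotation with the inhibitors dorsomorphin (1 µM) and SB431542 (10 µM). A ROCK inhibitor was also present during the 2 adherent days. The cells were then replated for 7 days and were taken just ahead of rosette selection, when neural progenitor cells (NPCs) are forming. The cells of 2 separately derived clones had been mixed before loading, so the clones could not be told apart. With 1 library there was no replicate, every comparison is between cells of that library, and no test was run.

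Progression through the cell cycle is driven by cyclin-dependent kinases (CDKs), which are inactive without a cyclin partner. D-type cyclins bind CDK4 and CDK6 in G1 and link growth signals to the retinoblastoma protein, E-type cyclins bind CDK2 at the G1/S boundary, cyclin A2 acts with CDK2 and CDK1 in S and G2, and the B-type cyclins act with CDK1 in mitosis. CDKN1B binds cyclin-CDK2 complexes and CDKN2C binds CDK4 and CDK6. Cyclin D expression in NPCs is known for its part in holding cells in proliferation, and newborn neurons leave the cycle.

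The genes of cyclins A2, B1 and B2 carry CCAAT boxes close to their start sites, a known feature of genes transcribed in G2 and mitosis, and their promoters are shown here because these 3 genes had their highest levels in the same part of the cycle. The stretches are the 130 bases before the RefSeq start (assembly GRCh38.p14), written 5′ to 3′ on the strand of the gene. Capitals mark CCAAT on either strand (ATTGG when reversed) and TTTGAA, a core of the cell cycle genes homology region (CHR). Other forms of this core were not searched for and are not marked.
CCNA2, chr4:121823884-121824013, minus strand: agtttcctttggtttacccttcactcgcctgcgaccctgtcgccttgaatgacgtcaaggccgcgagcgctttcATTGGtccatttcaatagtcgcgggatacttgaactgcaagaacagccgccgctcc
CCNB1, chr5:69167020-69167149, plus strand: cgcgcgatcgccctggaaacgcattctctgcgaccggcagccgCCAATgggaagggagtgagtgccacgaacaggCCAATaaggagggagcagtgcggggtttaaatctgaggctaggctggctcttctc
CCNB2, chr15:59105016-59105145, plus strand: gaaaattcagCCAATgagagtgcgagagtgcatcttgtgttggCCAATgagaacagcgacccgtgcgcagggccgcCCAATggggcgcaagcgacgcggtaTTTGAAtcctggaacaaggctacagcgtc
CCAAT occurred once in the 250 bases before the start of CCNA2, at bases 56 to 52 before it. CCNB1 held 2 matches, at bases 87 to 83 and 55 to 51. CCNB2 held 4, at bases 244 to 240, 120 to 116, 87 to 83 and 54 to 50, and also TTTGAA at bases 29 to 24. CDKN1B held 2 CCAAT matches, at bases 174 to 170 and 50 to 46, and none was found in CCNE1, CCND3 or CDKN2C. Of 27305 promoters of the same length, 33.0% held CCAAT on either strand, 10.0% held it at 2 or more places, and 13.6% held TTTGAA. The E2F words TTTCGCGC, TTTGGCGC, TTTCCCGC and TTTGCCGC were in 2.79% of all promoters and in none of the 7 promoters of these genes that were read (CCND3, CCNE1, CCNA2, CCNB1, CCNB2, CDKN1B and CDKN2C). CCND1, CCND2 and CCNE2 were not in the promoter table. A match of letters is a description of the sequence and not a measured binding site.

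The table held 327640709 unique molecular identifiers (UMIs, each standing for 1 captured transcript) in 14726 barcodes, and 13925 cells passed the limits of 2000 to 10000 genes and a mitochondrial share below 0.1. A level below is the sum of a gene's UMIs in a group of cells per 1000000 UMIs of that group (CPM), with an exact 95% Poisson interval, and a ratio of levels carries an exact conditional interval. All intervals cover counting error only. Levels were not scaled to transcript length, so levels, and shares or ratios of the UMIs of related genes, are compared between groups of cells and not between genes. Each cell was called G1, S or G2/M from the gene lists shipped with Seurat after CCNE2 and CCNB2 had been taken out of them, so none of the 10 genes was on the lists. This gave 3469 G1 cells (24.9%), 5816 S cells (41.8%) and 4640 G2/M cells (33.3%), with medians of 13911, 17381 and 23307.5 UMIs. Cells were also placed in 8 sectors of 45° by the angle of their S and G2/M scores. The levels of 3 further lists, chosen with earlier results of these data known, followed this order. G1/S genes such as CDC25A and MCM10 were highest in sectors 3 and 4 (439 and 435 CPM summed), replication histones in sector 4 (230 CPM) and mitotic genes such as PLK1 in sector 6 (537 CPM).

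Over all kept cells, the levels were 257 CPM for CCND1 (chr11:69641156-69654474, plus strand), 173 CPM for CCND2 (chr12:4269771-4305353, plus strand) and 15.3 CPM for CCND3 (chr6:41934934-42050357, minus strand). CCNE1 (chr19:29811991-29824312, plus strand) had 19.4 CPM and CCNE2 had 9.85 CPM. CCNA2 (chr4:121816444-121823883, minus strand) had 61.2 CPM, CCNB1 (chr5:69167135-69178245, plus strand) 160.5 CPM and CCNB2 (chr15:59105126-59125045, plus strand) 91.8 CPM. The inhibitor CDKN1B (chr12:12685498-12722369, plus strand) had 31.5 CPM, whereas CDKN2C (chr1:50960745-50974634, plus strand) had 0.48 CPM from 151 UMIs in all. Positions are those of GENCODE version 44 on GRCh38. Fold changes were counted among the 10000 genes at 10 CPM or more, which 8 of the 10 genes reached, CCNE2 and CDKN2C being below this limit.

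The question of the first comparisons was how each cyclin followed the cycle in these progenitors. From G1 to G2/M, 5 of the 8 genes were higher by 1.5-fold or more, against 8.17% of all genes tested, and 1 was lower, against 4.79%. From G1 to S, 3 of 8 were higher, against 9.4% of all genes tested, and 0 were lower, against 3.12%. The median log2 ratio of the 8 genes was 0.63 for G2/M and 0.42 for S, beside medians of 0.04 and -0.01 over all genes tested.

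The D-type cyclins, which partner CDK4 and CDK6, varied least around the cycle, together with CDKN1B. CCND2 stood at 229 CPM in G1, 169 CPM in S and 151 CPM in G2/M, so that the G2/M level was 0.66 of the G1 level (0.646 to 0.675). It was the gene counted as lower above, close to the limit of 1.5-fold, and the call was lost with the mean of per-cell CPM (log2 ratio -0.57, beside -0.60) and after thinning to 5000 UMIs (-0.53). By sector, CCND2 was highest in sector 8 (235 CPM), which holds G1 cells, and lowest in sector 5 (135 CPM). CCND1 had 278 CPM in G1, 238 CPM in S and 264 CPM in G2/M, a G2/M to G1 log2 ratio of -0.07. In cells of 15000 to 30000 UMIs only, a range chosen after seeing the data that left 1072 G1 and 2456 G2/M cells, this log2 ratio was -0.76 for CCND1 and -0.93 for CCND2, so that both were lower by more than 1.5-fold. This range can also change the mix of cell classes. The contractile cells described below had medians of 38750 UMIs in G1 and 57075 in G2/M. At all depths, the CCND1 log2 ratio was 0.005 in contractile cells and -0.33 in other cells. The part of the class mix in the values of this range was not tested. CCND3 had 15.3, 16.5 and 14.2 CPM in G1, S and G2/M, and its G2/M to G1 ratio of 0.925 had an interval of 0.855 to 1.00.

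The course of CCND1 over all cells combined cell classes with different levels. Cells were called contractile when the UMIs of ANXA1, TFPI2 and CTGF together made up at least 5 of 10000 UMIs of the cell. These cells held 14.1% of the UMIs in sector 1, 18.1% in sector 5, 40.3% in sector 6 and 53.3% in sector 7, and their CCND1 level was higher in every sector. In the other cells, CCND1 was highest in sector 2 (222 CPM) and lowest in sector 6 (164 CPM), and its G2/M level was 0.796 of the G1 level (0.776 to 0.817). Within contractile cells, the G2/M to G1 ratio of CCND1 was 1.00 (0.977 to 1.03) and its sector levels lay between 430 and 524 CPM. CCND2 was lower in G2/M than in G1 in both classes, with G2/M to G1 ratios of 0.583 (0.564 to 0.603) in contractile and 0.673 (0.655 to 0.693) in other cells.

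The E-type cyclins, which activate CDK2 at the entry into S phase, peaked early. CCNE1 rose from 10.1 CPM in sector 1 to 24.9, 49.2 and 54.6 CPM in sectors 2, 3 and 4, and stood at 15.7, 6.51, 5.89 and 4.66 CPM in sectors 5 to 8. Its highest level was 11.7-fold above its lowest (9.97 to 13.9). CCNE2 reached 30.4 CPM in sector 3 and 29.6 CPM in sector 4, with overlapping intervals, and had its lowest level of 1.82 CPM in sector 7. Called by phase, CCNE1 had 5.92 CPM in G1, 38.0 CPM in S and 8.90 CPM in G2/M. The S to G1 ratio was 6.42 for CCNE1 (5.76 to 7.17) and 6.81 for CCNE2 (5.86 to 7.96), intervals that overlap. Both genes stayed low in cells called G1 and were concentrated in cells with high levels of the replication genes that define the S call.

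Cyclin A2 and the B-type cyclins had their highest levels together in sector 6 but left their low levels at different points. CCNA2 had 3.78 CPM in sector 1, 6.22 in sector 2, 19.8 in sector 3, 64.1 in sector 4, 93.8 in sector 5, 117.5 in sector 6, 35.2 in sector 7 and 4.51 in sector 8. Its level in sector 4 was thus already above its level in sector 7. CCNB1 had 27.4, 31.2, 39.8 and 88.8 CPM in sectors 1 to 4, then 242 in sector 5, 328 in sector 6, 129.6 in sector 7 and 30.9 in sector 8. CCNB2 remained between 28.1 and 50.1 CPM in sectors 1 to 4, reached 125 CPM in sector 5 and 175 CPM in sector 6, and was still at 109.8 CPM in sector 7. The highest level was 31.1-fold over the lowest for CCNA2 (26.4 to 36.8), 12.0-fold for CCNB1 (11.3 to 12.7) and 6.25-fold for CCNB2 (5.88 to 6.65). The order of these ranges held in the other cells alone (38.0-, 15.1- and 7.57-fold) and in contractile cells (18.2-, 6.71- and 5.93-fold), where the intervals of CCNB1 (6.06 to 7.44) and CCNB2 (5.13 to 6.88) overlapped.

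**Figure D1:**
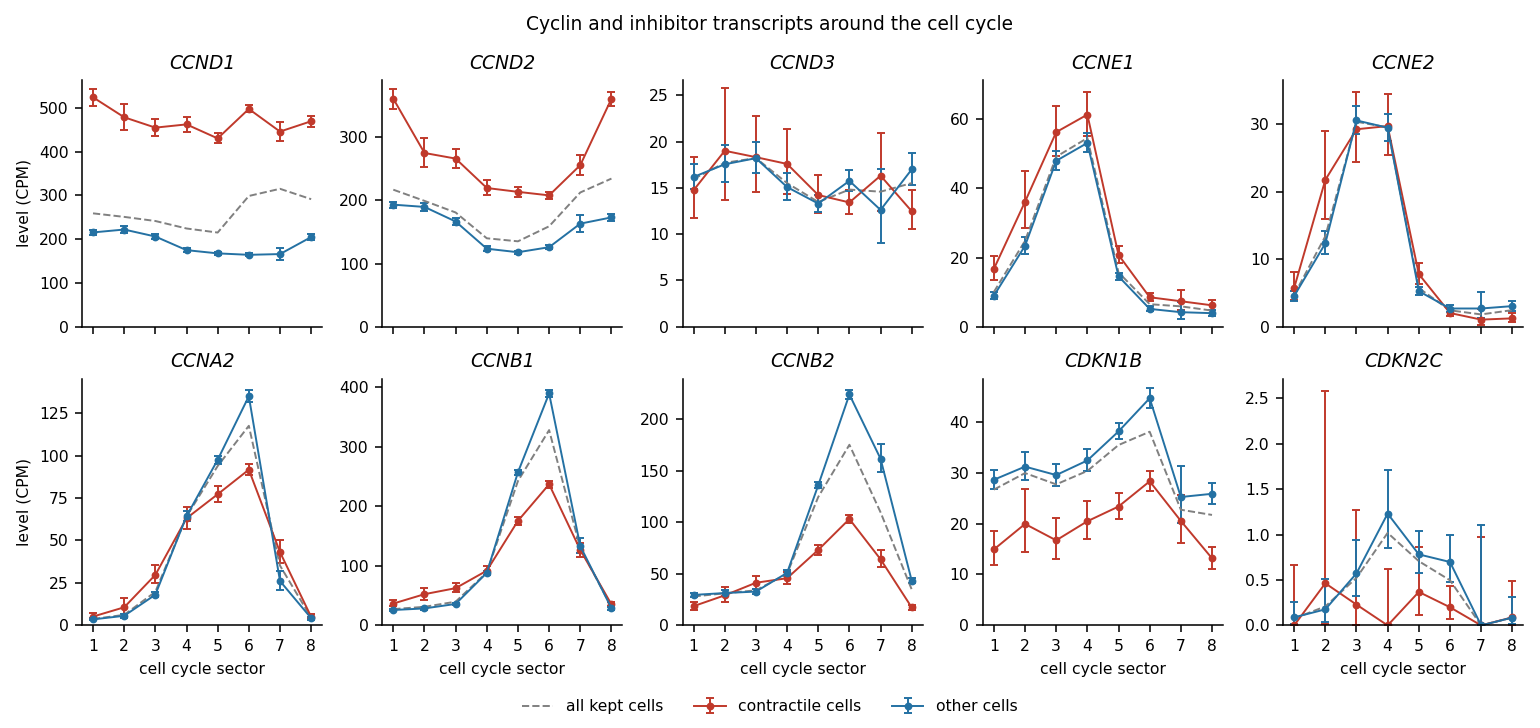
Level of each gene (y axis, CPM) in the 8 cell cycle sectors (x axis) for contractile cells (red), other cells (blue) and all kept cells (grey dashes), with exact 95% Poisson intervals. CCNE1 and CCNE2 peaked in sectors 3 and 4 and CCNA2, CCNB1 and CCNB2 in sector 6, while the red line of CCND1 stayed at 430 to 524 CPM and the blue line at 164 to 222 CPM.

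The share of cells with a UMI was also highest in G2/M for CCNB1 and CCNA2. After each cell had been thinned to 5000 UMIs, CCNB1 was found in 72.5% of G2/M cells (71.2 to 73.8%) and 11.8% of G1 cells (10.7 to 12.9%), and in 10.5% of the newborn neuron-like cells described below (5.35 to 18.0%). Before thinning these shares were 97.5%, 33.1% and 26.4%. CCNA2 was found in 41.1% of thinned G2/M cells, 1.53% of G1 cells and 2.86% of newborn neuron-like cells. In the newborn neuron-like cells that were themselves called G1 (median 12726 UMIs, beside 13911 in all G1 cells), CCNB1 was found in 4 of 91 thinned cells (4.40%, 1.21 to 10.9%) and CCNA2 in 0 (0 to 3.97%), where 3 counts would be a share of 3.30%. Both groups were called G1 from low S and G2/M scores, and no background level was measured. For CCNA2, the interval of the share in G1 cells (1.15 to 2.00%) lies inside that of the neuron-like G1 cells. The part of background in that CCNA2 share was not tested. For CCNB1, the 2 intervals met only at their edges. Its level in neuron-like G1 cells was 0.6 of that in other G1 cells (0.366 to 0.93). How far background adds to the CCNB1 share in G1 cells was not tested.

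Of the 2 CDK inhibitors, CDKN1B, whose protein is known to be regulated largely by its stability, had 23.7 CPM in G1, 28.6 CPM in S and 37.7 CPM in G2/M, a G2/M to G1 ratio of 1.59 (1.5 to 1.69). By sector it was highest in sector 6 (38.0 CPM) and lowest in sector 8 (21.7 CPM). The direction was shared by contractile cells, with a ratio of 2.01 (1.73 to 2.34), and by other cells, with 1.57 (1.47 to 1.67). CDKN2C had 3 UMIs in G1, 73 in S and 75 in G2/M, or 0.05, 0.607 and 0.56 CPM. Its S to G1 ratio of 12.2 had an interval of 4.02 to 60.6, and with 151 UMIs in all no finer course could be read.

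Of 52 other genes of the CDK, retinoblastoma/E2F and anaphase-promoting pathways, 44 were tested. From G1 to G2/M, 22 of them were higher by 1.5-fold or more, against 8.17% of all genes tested, and 3 were lower, against 4.79%. The 3 furthest up were CDK1 (31.4-fold), the phosphatase CDC25C (26.6-fold) and CDC20, an activator of the anaphase-promoting complex (13.7-fold). All 3 belong to the lists that called the phases, as do CKS1B (4.31-fold) and CKS2 (4.22-fold), so the direction of these 5 was set by the call. Of the 39 tested pathway genes outside the lists, 17 were higher, against 7.36% of the 9909 genes tested outside the lists, and 3 were lower, against 4.83%. The 3 furthest down were the inhibitors CDKN1A (p21, 40.1 CPM in G1 and 11.7 CPM in G2/M) and CDKN1C (p57, 105 and 58.1 CPM) and TFDP2, a dimer partner of E2F factors (332 and 208 CPM). The G1 cells include 92 of the newborn neuron-like cells described below, which had 1004 CPM of CDKN1C. The other G1 cells had 86.8 CPM of it. From G1 to S, 23 of the 44 genes were higher, against 9.4%, and 3 lower, against 3.12%. Outside the phase lists 18 of 39 were higher, against 8.64%, and 3 lower, against 3.15%. E2F2, a transcription factor of the G1/S boundary that was in neither phase list, had 0.696 CPM in G1 and 17.7 CPM in S (25.4-fold, 18.7 to 35.3), followed by CDK1 (11.7-fold) and CDC25C (10.9-fold). CDK1 and CDC25C are on the phase lists, so their low G1 levels were in part set by the call. CDKN1A (0.25 of its G1 level), CDKN1C (0.481) and CCNG2 (0.651) were furthest down. CDK4 and CDK6, the partners of the D-type cyclins, had G2/M to G1 ratios of 1.16 and 1.14.

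The next comparison asked how the contractile cells differed. There were 1584 of them (11.4% of kept cells), with a median of 47217 UMIs against 16910 in the 12341 others. A list of 7 contractile genes not used to choose them, among them TAGLN, ACTA2 and CNN1, summed to 11550 CPM against 1737 CPM. This list and the class rule were chosen with earlier results of these data known, so the sum is a description and not independent support. The NPC transcripts HES5 (10.2 against 181 CPM), FABP7 (50.6 against 485.5 CPM) and SOX1 (7.7 against 59.8 CPM) were lower in them, SOX2 stood at 117 against 412 CPM, while VIM (4302 against 904 CPM) and NES (666 against 238 CPM) were higher. The whole NPC list, which also holds PAX6 and HES1, summed to 5263 against 2447 CPM. VIM alone made up 4302 and 904 CPM of these sums, so their direction does not stand for the list as a whole. Epithelial keratins KRT8 and KRT18 were at 279.6 and 393 CPM against 77.1 and 82.8 CPM, the epithelial markers EPCAM and CDH1 at 3.9 and 0.196 CPM against 4.75 and 0.185 CPM, and the crest and mesenchyme list summed to 87.5 against 19.3 CPM, with DCN at 0. The part of these transcripts in the values below was not tested. Contractile cells were called G2/M in 45.8% of cases (43.4 to 48.3%), against 31.7% of other cells (30.9 to 32.5%), and S in 31.5% against 43.1%.

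Of the 8 genes tested, CCND1 had the largest ratio between the classes. Contractile cells had 475 CPM of CCND1 and other cells 186 CPM, a ratio of 2.55 (2.52 to 2.59). CCND2 had 251 CPM against 147 CPM, a ratio of 1.70 (1.68 to 1.74), and CCND3 14.4 against 15.6 CPM. CCND1 and CCND2 were the 2 of 8 genes higher by 1.5-fold or more, against 11.2% of all genes tested. CDKN1B, at 22.3 against 34.5 CPM (0.648, 0.615 to 0.683), was the 1 gene lower, against 26.8%. Its log2 ratio was -0.63, and the call was lost after thinning to 5000 UMIs (-0.43) and after division by the median ratio of all genes tested (-0.42). CCNB2, at 67.2 against 99.7 CPM (0.674), lay just outside the limit. The median log2 ratio over all genes tested was -0.20 and that of the 8 genes -0.11. In other words, the typical gene was somewhat lower in contractile cells per 1000000 UMIs, and CCND1 had a log2 ratio of 1.35.

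The D-type cyclins together made up 741 CPM in contractile cells and 349 CPM in other cells. CCND1 contributed 64.2% of these UMIs in contractile cells (63.8 to 64.5%) and 53.4% in other cells (53.0 to 53.7%), while the share of CCND3 was 1.95% and 4.46%. Per cell, the median contractile cell had 17 UMIs of CCND1 (highest 174) and the median other cell 3 (highest 89). After thinning to 5000 UMIs, CCND1 was found in 83.1% of contractile cells (81.2 to 84.9%) and 55.3% of other cells (54.5 to 56.2%), against 99.2% and 88.6% before, and in 21.9% of newborn neuron-like cells.

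The difference in CCND1 and CCND2 was present in each phase. CCND1 stood at 486 against 210.1 CPM in G1, 444 against 194 CPM in S and 488 against 167 CPM in G2/M, ratios of 2.31 (2.24 to 2.39), 2.30 (2.24 to 2.35) and 2.92 (2.86 to 2.98). The CCND1 ratio in G2/M was the largest, and its interval did not overlap those of G1 and S. CCND2 had 367 against 184 CPM in G1, 241 against 153 CPM in S and 214 against 124 CPM in G2/M, with the ratio largest in G1 (2.00, 1.93 to 2.07). In cells of 30000 to 60000 UMIs only, a range chosen after seeing the data that left 844 contractile and 1239 other cells, the log2 ratio of CCND1 was 0.99 and that of CCND2 0.69.

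**Figure D2:**
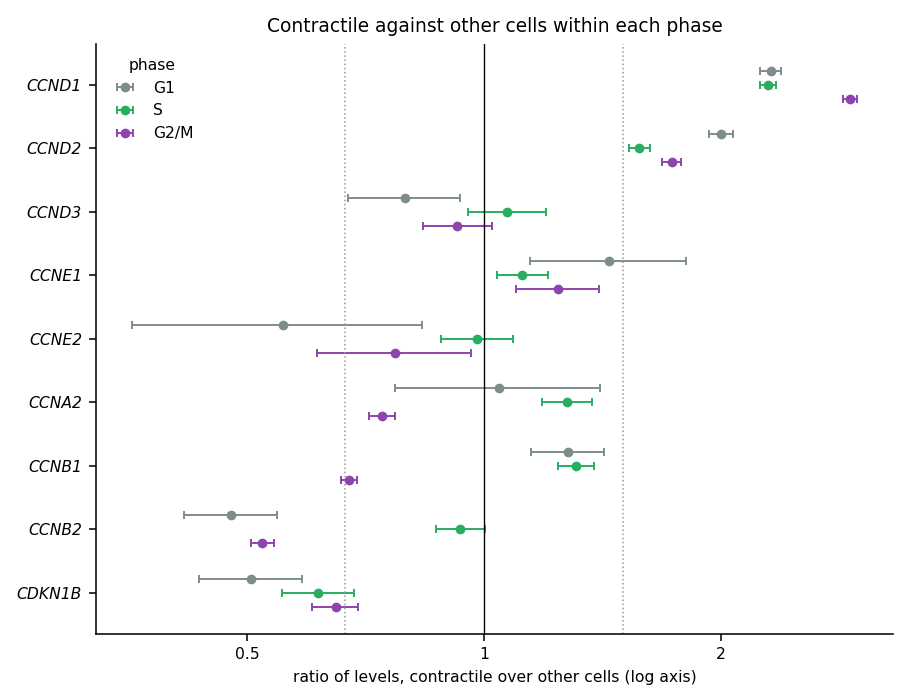
Ratio of each gene's level in contractile over other cells (x axis, log scale) within cells called G1 (grey), S (green) and G2/M (purple), with exact 95% conditional intervals; dotted lines mark 1.5-fold and CDKN2C is left out for its low counts. CCND1 lies at 2.30 to 2.92 and CDKN1B at 0.506 to 0.648 in all 3 phases, while CCNB1 lies above 1 in G1 and S and at 0.674 in G2/M.

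The difference in the mitotic cyclins varied with the phase. CCNA2 (59.7 against 61.7 CPM) and CCNB1 (150.0 against 164 CPM) had pooled ratios of 0.967 and 0.915. In cells of 30000 to 60000 UMIs only, the range chosen after seeing the data, their log2 ratios were -0.92 and -1.03. That of CCNB2 was -1.11. This range can also change the mix of phases, as depth differed between them. Contractile cells had medians of 57075 UMIs in G2/M and 38750 in G1, and other cells 21842.5 and 13479. The part of this mix in the log2 ratios was not tested. In cells called G2/M, contractile cells had less of all 3, with 88.0 against 119 CPM of CCNA2, 227 against 337 CPM of CCNB1 and 98.4 against 188 CPM of CCNB2. The G2/M ratios were 0.742 (0.714 to 0.771), 0.674 (0.659 to 0.69) and 0.523 (0.505 to 0.541). In S, CCNA2 (44.2 against 34.7 CPM) and CCNB1 (84.3 against 64.5 CPM) were higher in contractile cells, and CCNB2 was at 42.8 against 45.9 CPM. In G1, CCNA2 had a ratio of 1.05 (0.771 to 1.40) and CCNB1 had 33.1 against 25.9 CPM, while CCNB2 had 16.7 against 35.0 CPM, a ratio of 0.477 (0.416 to 0.546). CCNB1 and CCNB2 thus differed in opposite directions in G1.

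The balance between the B-type cyclins followed the cycle in one class and not to the same extent in the other. In other cells, the UMI ratio of CCNB1 to CCNB2 was 0.872 in sector 1, 0.906 in sector 2, 1.10 in sector 3, 1.73 in sector 4, 1.89 in sector 5, 1.74 in sector 6, 0.822 in sector 7 and 0.664 in sector 8. In contractile cells it lay between 1.51 (1.25 to 1.83, sector 3) and 2.39 (2.22 to 2.58, sector 5), and it was 2.03 (1.70 to 2.42) in sector 8, where the other cells had their lowest value (0.601 to 0.733). The CCND1 to CCND2 ratio was also higher in contractile cells in every sector, from 1.30 (1.25 to 1.36) in sector 8 to 2.39 (2.32 to 2.46) in sector 6, against 1.02 to 1.42 in other cells. The difference was smallest in sector 8, where other cells had 1.18 (1.13 to 1.23).

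**Figure D3:**
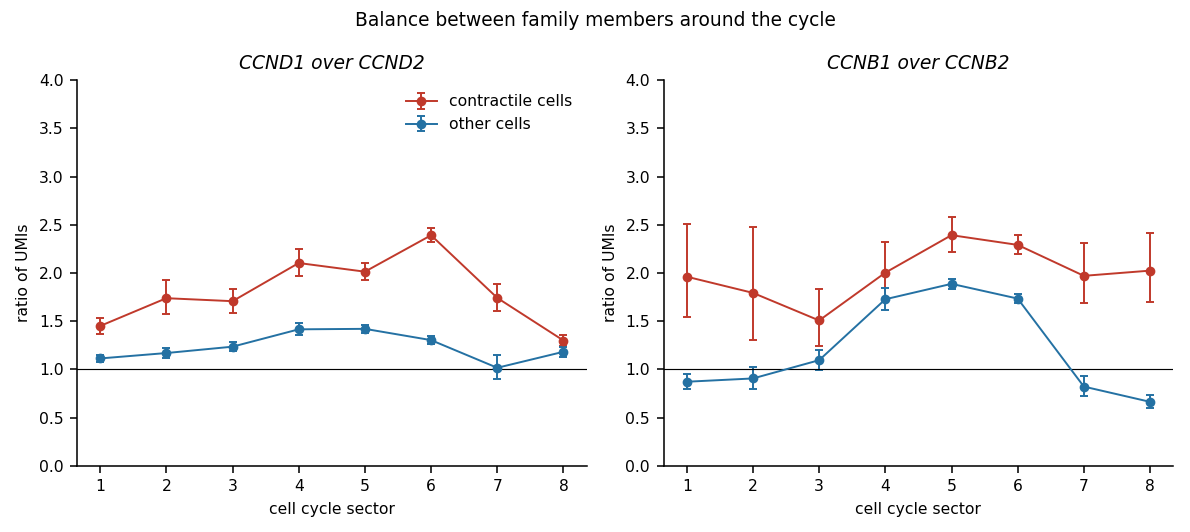
Ratio of the UMIs of CCND1 to those of CCND2 (left) and of CCNB1 to those of CCNB2 (right) on the y axis in the 8 cell cycle sectors (x axis) for contractile (red) and other cells (blue), with exact 95% conditional intervals. In other cells the B-cyclin ratio moved from 0.664 in sector 8 to 1.89 in sector 5, and in contractile cells it did not go below 1.51.

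Of the E-type cyclins, CCNE1 had 18.5 against 19.8 CPM over all phases and was somewhat higher in contractile cells within each phase, by 1.44-fold in G1 (1.14 to 1.81), 1.12-fold in S (1.04 to 1.20) and 1.24-fold in G2/M (1.10 to 1.40). CCNE2 had 7.4 against 10.6 CPM over all phases (ratio 0.696, 0.635 to 0.763). In S it was at 20.3 against 20.7 CPM (0.981, 0.882 to 1.09), in G1 at 1.89 against 3.41 CPM (0.555, 0.357 to 0.833) and in G2/M at 2.66 against 3.45 CPM (0.771, 0.614 to 0.961). CDKN1B was lower in contractile cells in each phase, with 13.6 against 26.9 CPM in G1, 18.9 against 30.6 CPM in S and 27.3 against 42.2 CPM in G2/M. CDKN2C had 14 UMIs in contractile and 137 in other cells (0.183 against 0.576 CPM).

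Along the contractile score the change was gradual. CCND1 had 166 CPM in the 7903 cells with none of the 3 transcripts, 186 CPM in cells with a score below 1, 249.9 CPM from 1 to 3, 339.8 CPM from 3 to 5, 369.8 CPM from 5 to 10, 473 CPM from 10 to 30 and 548 CPM at 30 or more. The bins just below and just above the limit of 5 differed from each other by less than either did from its next bin. CCND2 was highest at 5 to 10 (287 CPM) and had 227 CPM at 30 or more. CCNB2 had 97.8 CPM at a score of 0 and 63.5 CPM at 30 or more, and CDKN1B 35.2 and 20.6 CPM. Median depth moved along the same axis, from 15756 UMIs at 0 to 31207 at 3 to 5 and 55006.5 at 30 or more.

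**Figure D4:**
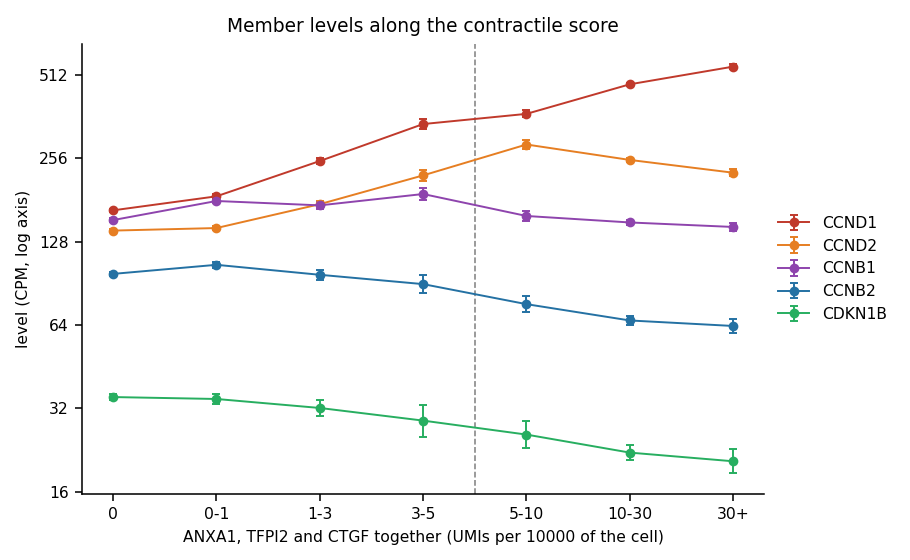
Levels (y axis, CPM, log scale) of CCND1, CCND2, CCNB1, CCNB2 and CDKN1B in 7 bins of the contractile score (x axis), with exact 95% Poisson intervals; the dashed line marks the limit of 5 UMIs per 10000. CCND1 was at 166 CPM in the first bin and 548 CPM in the last, and CDKN1B at 35.2 and 20.6 CPM.

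Among the 44 tested pathway genes, 4 were higher by 1.5-fold or more in contractile cells, against 11.2% of all genes tested, and 12 were lower, against 26.8%, with a median log2 ratio of -0.17. The 3 furthest up were CDKN1A, a CDK inhibitor and target of p53 (48.2 against 6.28 CPM, 7.67-fold, 7.22 to 8.15), MYC (57.0 against 13.9 CPM, 4.11-fold) and CDK6, a catalytic partner of D-type cyclins (149 against 44.7 CPM, 3.32-fold, 3.24 to 3.41). The fourth was WEE1, a kinase that inhibits CDK1 (189 against 68.4 CPM). CDK4 was at 194 against 184 CPM. The 3 furthest down were MYCN, the MYC family member typical of neural progenitors (5.34 against 33.2 CPM), E2F2 (3.52 against 12.4 CPM) and CCNG2 (19.0 against 59.5 CPM). CDKN2B (p15), below the limit for testing and named after its values were seen, had 33.1 CPM in contractile and 0.79 CPM in other cells (41.9-fold, 36.1 to 48.9).

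The last comparison concerned cells that leave the cycle. Newborn neuron-like cells were those with at least 3 of 8 neuronal markers (STMN2, ELAVL3, ELAVL4, INA, NHLH1, TUBB3, MYT1L and SNAP25) that together made up 5 or more of 10000 UMIs and that did not meet the contractile rule. There were 106 of them (0.761%), with a median of 13095 UMIs. Neuronal genes not used to choose them were higher as well, as DCX was at 934 against 57.8 CPM and SYT4 at 111 against 0.051 CPM. Their list was also chosen with earlier results of these data known. The summed NPC list was at 869 against 3146 CPM in all other cells, which include the contractile cells. Cells outside the contractile class had 2447 CPM. Of the 106 cells, 92 (86.8%, 78.8 to 92.6%) were called G1, 6 S and 8 G2/M. Another 10 cells met both rules and were counted as contractile and not as neuron-like.

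For 7 of the 8 cyclins, the interval of the ratio lay below 1 in newborn neuron-like cells, the exception being CCND3. CCND1 had 81.0 CPM (132 UMIs) against 258 CPM in all other cells, a ratio of 0.314 (0.263 to 0.373), and CCND2 had 87.2 CPM (142 UMIs) against 173 CPM, a ratio of 0.503 (0.424 to 0.593). The other cells include the contractile cells, where both genes were higher. Against the 12235 cells of neither class, a comparison added after seeing the data, CCND1 stood at 187 CPM and CCND2 at 148 CPM, and the ratios were 0.433 (0.362 to 0.514) and 0.59 (0.496 to 0.695). CCND3 had 12.3 against 15.3 CPM with an interval of the ratio of 0.49 to 1.24. CCNE1 had 7.98 CPM (13 UMIs) against 19.5 CPM and CCNE2 3.07 CPM (5 UMIs) against 9.88 CPM. CCNA2 (14.7 against 61.5 CPM), CCNB1 (51.6 against 161 CPM) and CCNB2 (38.1 against 92.1 CPM) had ratios of 0.24, 0.32 and 0.414. CDKN1B was at 30.1 against 31.5 CPM (0.954, 0.706 to 1.26), and CDKN2C had 0 of its 151 UMIs there, where 3 counts would be 1.84 CPM. Of the 8 genes tested, 6 were lower by 1.5-fold or more, against 25.7% of all genes, and 0 were higher, against 13.3%. The median log2 ratio was -1.28 for the 8 genes and -0.13 for all genes tested.

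Much of the mitotic cyclin signal in this class came from a few cells. The 14 cells called S or G2/M had a median of 29294 UMIs, and 10 of them were among the 8% of barcodes with the highest Scrublet doublet scores, against 2 of the 92 cells called G1. These 14 cells held 23 of the 24 CCNA2 UMIs, 64 of 84 CCNB1 UMIs and 52 of 62 CCNB2 UMIs. The part of doublets in these values was not tested beyond the removal of the highest scores, after which the log2 ratio of CCNA2 went from -2.06 to -3.26 and that of CCNB1 from -1.64 to -2.36.

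CCND1 and CCND2 were lower also at a matched phase. In newborn neuron-like cells called G1, CCND1 had 70.3 CPM against 282 CPM in other G1 cells, a ratio of 0.249 (0.199 to 0.309), and CCND2 had 94.6 against 232 CPM, a ratio of 0.409 (0.337 to 0.492). Against the G1 cells of neither class, with 214 CPM of CCND1 and 186 CPM of CCND2, the ratios were 0.329 (0.262 to 0.408) and 0.508 (0.418 to 0.612). The ratio of CCND3 was 0.705 in the first of these comparisons and 0.667 in the second, with intervals that span 1 (0.374 to 1.21 and 0.354 to 1.15). Of CCND1 and CCND2, CCND1 had the lower ratio in both comparisons, with intervals that do not overlap. These intervals do not cover spread between cells. CCND1 was found in 28 of the 92 neuron-like G1 cells and CCND2 in 47. The UMI ratio of CCND1 to CCND2 was 0.743 (0.554 to 0.995) in these cells. It was 1.15 (1.11 to 1.18) in G1 cells that were neither contractile nor neuron-like. CCNB2 had 8.37 against 31.0 CPM (0.27, 0.129 to 0.498) and CCNB1 16.8 against 27.9 CPM (0.6, 0.366 to 0.93). CCNE1 (6 UMIs) and CCNE2 (4 UMIs) had ratios of 0.847 and 1.11 with intervals that span 1, as had CDKN1B with 1.21 (0.833 to 1.70) and CCNA2, with 1 UMI, 0.204 (0.00514 to 1.15).

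**Figure D5:**
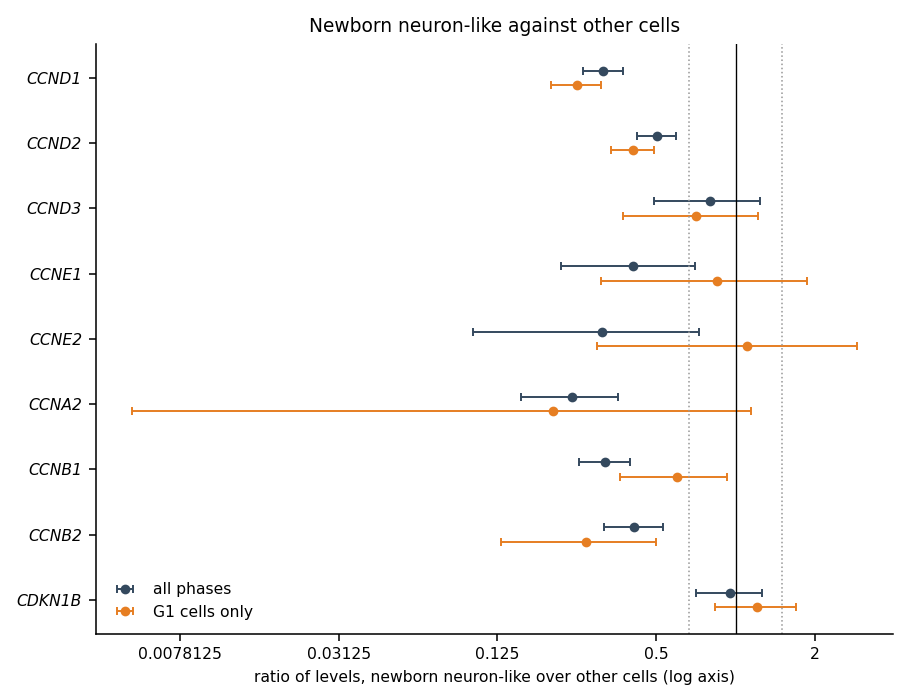
Ratio of each gene's level in newborn neuron-like over other cells (x axis, log scale) for all phases (dark) and for cells called G1 in both groups (orange), with exact 95% conditional intervals; dotted lines mark 1.5-fold and CDKN2C, with 0 UMIs in the neuron-like cells, is left out. CCND1 lies at 0.314 and 0.249 and CCND2 at 0.503 and 0.409, whereas the intervals of CDKN1B include 1.

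The other inhibitors differed in both directions in the newborn neuron-like cells. Of the 44 tested pathway genes, 5 were higher by 1.5-fold or more, against 13.3% of all genes tested, and 27 were lower, against 25.7%. CDKN1C (p57), known for its part in cell cycle exit, was at 818 against 60.2 CPM (13.6-fold, 12.8 to 14.4), CDKN2D (p19), an inhibitor of CDK4 and CDK6, at 32.5 against 11.3 CPM (2.88-fold, 2.15 to 3.77), and CCNG2, a cyclin of non-cycling cells, at 98.8 against 49.3 CPM (2.00-fold, 1.71 to 2.34). CDKN1A was the furthest down with 1 UMI, at 0.614 against 16.6 CPM, followed by MYC (3.07 against 24.5 CPM) and CDK6 (11.1 against 70.4 CPM). These 3 were also the tested pathway genes furthest up in contractile cells, which are among the other cells here, and cells outside the contractile class had 6.28, 13.9 and 44.7 CPM of them. CDKN3, a phosphatase that acts on CDKs, was at 22.1 against 56.8 CPM (0.389, 0.272 to 0.539), and CDK4 at 100.1 against 187 CPM. With both groups limited to cells called G1, 8 of the 44 genes were higher, against 13.0% of all genes tested, and 20 lower, against 25.5%. There CDKN1C had a ratio of 11.6 (10.8 to 12.3) and CDKN2D one of 7.88 (5.64 to 10.8). The third furthest up was E2F1, at 27.6 CPM (33 UMIs) against 10.4 CPM, a ratio of 2.65 (1.81 to 3.76). The 3 furthest down were again CDKN1A (0 UMIs), MYC (2 UMIs) and CDK6 (7 UMIs). The interval for CDKN3, with 5 UMIs, spanned 1 (0.485, 0.157 to 1.14).

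For each gene, the most similar genes were sought by Pearson's r of log2(CPM + 1) over 16 points, the 8 sectors in contractile and in other cells, among 9902 genes outside the phase lists. All points came from 1 library, so r is a description only. Both the difference between the classes and the course of the cycle enter r, which does not separate them. CCND1 was most like RASA3 (r = 0.988), OCIAD2 (0.987) and BCAR3 (0.986), and CCND2 most like OST4 (0.97), RTL8C (0.962) and ARMCX3 (0.96). CCNE1 was nearest to PYGL (0.972), GXYLT1 (0.952) and FAM111B (0.948), and CCNE2 to FAM111B (0.955), TSEN54 (0.935) and SAMD1 (0.926). CCNA2 was nearest to the histone variant gene H2AFX (0.99), the kinetochore gene KNL1 (0.984) and the mitotic kinase gene PBK (0.983), and CCNB1 to the mitotic kinase gene PLK1 (0.991), PRR11 (0.978) and the kinesin gene KIF20A (0.976). CCNB2 was nearest to BANF1 (0.97), NUDCD2 (0.966) and the cohesin gene RAD21 (0.954), and CDKN1B to SCLT1 (0.969), ATL2 (0.966) and E2F5 (0.959). CCND3 (DUSP22 0.808, BRSK2 0.779, ZNF738 0.774) and CDKN2C (PDS5B 0.851, ERI2 0.835, ZNF611 0.824) had lower values. Among the 10 genes, r was 0.944 between CCNE1 and CCNE2, 0.926 between CCNA2 and CCNB1, 0.888 between CCNB1 and CCNB2, 0.871 between CCND1 and CCND2 and -0.93 between CCND2 and CDKN1B.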

How the data were processed

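The authors deposited raw counts of UMIs per gene and cell barcode for 1 library (Chromium Single Cell 3′ HT chemistry), produced by Cell Ranger 7.0.1 with its defaults on the GRCh38 genome and limited to barcodes called as cells. No normalization had been applied. The annotation version and the use of strand in counting are not given in the sources used here. The capture target was 20000 cells (10000 per well). All barcodes had 1 suffix, so wells could not be separated, and no barcode was listed more than once.

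Cells were kept with 2000 to 10000 genes and a mitochondrial share below 0.1, which left 13925 of 14726. Both limits are those of the study's methods, where the second is called a percentage, and it was read here as a fraction, since as a percentage it would have left 76 cells. Phases were scored with scanpy 1.11.5 on counts scaled to 10000 per cell, with the Seurat 5.3.0 lists (43 S and 54 G2/M genes), of which 41 and 51 were found after CCNE2 and CCNB2 had been removed. A cell took the phase of its higher score, and G1 when both were below 0. Sectors of 45° started at -135° around the median scores. Thinning to 5000 UMIs left out 28 cells. Scrublet marked 218 barcodes at its automatic threshold of 0.402, and none was removed in the main values. The ratio and interval computation was tested on simulated data. Further software was R 4.3.3, Python 3.11.15, anndata 0.12.19, scipy 1.17.1, matplotlib 3.10.9, numpy 2.4.6 and pandas 2.3.3.

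Genes at 10 CPM or more were tested against a fold of 1.5, without a p-value, since cells are not replicates. The members, marker lists, classes and pathway list were chosen with earlier results of these data known. Named pathway genes were the 3 furthest past the fold in each direction in each comparison. CDK4, CDK6 (for G2/M), CKS1B, CKS2, WEE1, CDKN2B and CDKN3 were named outside this rule, after their values were seen. Named similar genes were the 3 with the highest r. Alternatives changed the scaling, depth, doublets, gene filter, fold, phase lists, cell classes and class limits. Intervals that overlap, or do not, were not taken as tests.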

Additional observations from a re-analysis of the deposited data

Results flagged for a closer look

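The 801 barcodes outside the quality filter, which none of the comparisons used, also held transcripts of these genes. The 10 genes together had 959.4 CPM there (12453 UMIs), where 3 counts would be 0.231 CPM, against 819.6 CPM in kept cells. The 94 barcodes with more than 10000 genes had 1102 CPM, with CCND1 at 478 CPM and CCND2 at 255 CPM and a median of 103907 UMIs. The 520 barcodes with fewer than 2000 genes had 450.8 CPM, and the 430 with a mitochondrial share of 0.1 or more had 478 CPM.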

How the results depend on the processing

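With 1 library no replicate could be left out, and no paired analysis was possible because there was 1 sample. Counting UMIs per cell in place of CPM moved the median log2 ratio of all genes to 0.77 for G2/M, 1.12 for contractile and -0.69 for newborn neuron-like cells, following depth. Under it, 8 genes were higher and 0 lower in contractile cells, and 0 were lower in G2/M. Of the log2 ratios past the fold, those of CCND2 (G2/M, 0.13) and CDKN1B (contractile, 0.70) reversed. In contractile cells, those of CCNA2 (1.28), CCNB1 (1.20), CCNB2 (0.76), CCND3 (1.22), CCNE1 (1.23) and CCNE2 (0.81) also became positive. So did those of CCND1 in G2/M (0.66) and S (0.03) and of CCND3 in G2/M (0.62). For G2/M against G1, the count of 1 lower gene (CCND2) became 0 with the mean of per-cell CPM, with thinning and at a fold of 2 (3 higher), and 2 in cells with 15000 to 30000 UMIs, where the log2 ratio of CCND1 was -0.76. In contractile cells, the count of 1 lower gene (CDKN1B) became 0 after division by the median ratio, after thinning and at a fold of 2 (1 higher), 2 at a limit of 10 UMIs per 10000, within G1, within G2/M and for the mean of the 3 phases, and 4 in cells with 30000 to 60000 UMIs, where the log2 ratios of CCNA2 and CCNB1 were -0.92 and -1.03. Dividing by the median ratio moved the calls over all genes from 11.2% higher and 26.8% lower to 16.9% and 18.3% in contractile cells, and from 13.3% and 25.7% to 17.7% and 20.7% in newborn neuron-like cells. Against other G1 cells, the newborn neuron-like class of all phases had 2 genes higher and 2 lower, and reversed log2 ratios for CCNE1 (0.43), CCNE2 (0.02), CCNA2 (1.84), CCNB1 (0.89) and CCNB2 (0.30). Against cells of neither class, an alternative added after seeing the data, the counts stayed at 0 higher and 6 lower, and the log2 ratio of CCND1 went from -1.67 to -1.21. At 1 CPM or more, 15626 genes were tested, with calls in G2/M of 7.65% higher and 10.5% lower. Of the other counts of genes past the fold, 75 were within 1.5 times the reported count. CCND1 and CCND2 were higher in contractile cells in each of the 12 alternatives that can change a ratio, by log2 ratios of 0.99 to 2.68 and 0.66 to 2.10. Limits on depth can also change the mix of phases and classes, since these differ in depth. The cause of the other moves was not tested.

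Depth limits CDKN2C (151 UMIs) and the newborn neuron-like values, several of which rest on under 25 UMIs.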
